A study of Mus musculus with 4 samples.

Results

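Guanylate-binding proteins (GBPs) and immunity-related GTPases (IRGs) are 2 families of interferon-induced GTPases. They were examined here as 10 genes, chosen by symbol from the 55401 genes of each table: 6 GBP genes (Gbp2, Gbp3, Gbp4, Gbp5, Gbp6 and Gbp7) and 4 IRG genes (Irgm1, Irgm2, Igtp and Iigp1). Each symbol matched 1 row, and all 10 passed the minimum mean of 10 counts-per-million (CPM) used below. The RNA came from lung cells of C57BL/6J mice, sorted by flow for CD3 and CD8 and labelled as CD8+ T cells. The mice belonged to 2 models, named IPF-LC and LC in the labels and not spelled out there, and were given an antibody against CD4, to deplete CD4 cells, or its isotype control. This gave 4 groups of 1 library each: in IPF-LC mice, isotype IPF-LC and CD4-depleted IPF-LC, and in LC mice, isotype LC together with CD4-depleted LC. How many mice stand behind a library, their age and sex, and the timing of the antibody are not given in the sources used here.

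Both families belong to the cell's own defence against microbes that live inside it. Interferon gamma, made by activated T cells and natural killer (NK) cells, acts through JAK kinases and transcription factors such as IRF1 to switch these genes on, and type I interferons induce many of them as well. GBPs assemble as coats on the vacuoles and surfaces of bacteria and parasites and help to start inflammasome signalling. Among the IRGs, the regulators Irgm1, Irgm2 and Igtp (also called Irgm3) sit on the cell's own membranes and hold back effectors such as Iigp1 (also called Irga6), which attack parasite vacuoles. T cells carry these transcripts too, as do macrophages, endothelial cells and fibroblasts, so in a bulk library fewer cells of a type and less RNA per cell cannot be told apart.

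The promoters are shown first because interferon acts on these genes through a short site near their start. RefSeq promoter windows (build GRCm38.p6) were at hand for 7 of the 10 genes, and none was at hand for Gbp4, Gbp6 and Iigp1. In the 250 bases before the start, all 7 held the core of an interferon-stimulated response element (ISRE), searched on both strands as GAAA, then 2 bases of any kind, then GAAA again. Of all 32851 promoter windows of that length, 2.98% held it. Capitals below mark every match to this core. The counts were made on the later build GRCm39, so the positions locate these stretches only.
Gbp5, chr3:142496744-142496803, plus strand: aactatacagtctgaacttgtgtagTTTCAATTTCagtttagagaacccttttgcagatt
Gbp7, chr3:142530258-142530317, plus strand: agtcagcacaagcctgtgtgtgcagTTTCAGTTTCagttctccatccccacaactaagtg
Gbp3, chr3:142559992-142560021, plus strand: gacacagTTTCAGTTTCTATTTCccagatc
Gbp2, chr3:142620594-142620623, plus strand: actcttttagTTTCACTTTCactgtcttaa
Irgm1, chr11:48871428-48871457, minus strand: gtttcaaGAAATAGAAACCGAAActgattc
Igtp, chr11:58199496-58199555, plus strand: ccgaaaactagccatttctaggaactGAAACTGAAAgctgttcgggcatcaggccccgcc
Irgm2, chr11:58214888-58214947, plus strand: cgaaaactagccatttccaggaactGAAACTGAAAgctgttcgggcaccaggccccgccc
The 4 GBP windows carry the core on the strand opposite to the transcript and the 3 IRG windows on the coding strand, the same strand as the transcript. Gbp3 and Irgm1 each have 2 overlapping matches. All the stretches lie upstream of the RefSeq start, and those of Gbp2 and Irgm1 also overlap an exon of their own gene in the GENCODE annotation of that build. A second listed start of Gbp3 had no match.

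Igtp and Irgm2 share nearly the same promoter around this site. Over 70 bases, from 40 before the first base of the match to 30 counted from it, 68 were identical and 2 differed. Both also hold a match to the gamma-activated site (GAS), searched as TTCNNNGAA, which reads the same on both strands. It is TTCTAGGAA in Igtp and TTCCAGGAA in Irgm2, just before the ISRE core. Gbp5 and Gbp7 had 2 GAS matches each, and no match was found in Gbp2, Gbp3 and Irgm1. Such a match occurs in 7.02% of all windows. A match describes the letters and does not show that a factor binds there.

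Total counts ran from 14946605 to 16217704 per library. The 10 CD8 T cell markers summed to between 4868 and 5884 CPM and none was at 0. They include genes of all T cells, such as Lck and Cd2, so their sum describes T cells in general. Cd8a itself was at 518 CPM in isotype IPF-LC, 353 in CD4-depleted IPF-LC, 476 in isotype LC and 452 in CD4-depleted LC. Markers of other cells were present in very different amounts. For the 20 macrophage and monocyte markers the sum was 3437 CPM in isotype IPF-LC, 1252 in CD4-depleted IPF-LC, 5065 in isotype LC and 372 in CD4-depleted LC. The 10 endothelial markers summed to between 139 and 335 CPM, the 8 fibroblast markers to between 17.2 and 331, the 8 dendritic cell markers to between 45.1 and 290 and the 8 NK cell markers to between 45 and 194. The 8 B cell and plasma cell markers summed to between 313 and 491 CPM, the 8 lung epithelial markers to between 15.9 and 85.9 and the 8 neutrophil markers to between 2.42 and 98.9. Of the 8 CD4 and regulatory T cell markers the sum was 74, 360, 183 and 344 CPM in the same order of libraries, and Cd4 itself was at 0 in CD4-depleted IPF-LC.

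Below, levels are TMM-scaled CPM and each comparison of 2 libraries is a log2 ratio of such levels, CD4-depleted over isotype or IPF-LC over LC, with a 95% interval. The interval covers counting error only: the reads carry no molecular identifiers, and no group has a second library, so no comparison of 2 libraries could be set against the spread between animals and none has a p-value.

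Igtp was the most abundant of the 10 per unit of transcript length in each library, and Gbp5 was among the lowest. On the deposited TPM scale (transcripts-per-million), which corrects for length, Igtp stood at 232 in isotype IPF-LC, 160 in CD4-depleted IPF-LC, 212 in isotype LC and 179 in CD4-depleted LC. Irgm1, Gbp2, Gbp4 and Gbp6 followed with TPM levels from 50 to 121, and their order differed between libraries. Gbp7 was next at 43.5 to 72.7 TPM. Gbp3 ranged from 18.7 to 38.6 TPM and Irgm2 from 9.53 to 29.9. Gbp5 varied least in TPM, from 7.03 to 8.77, whereas Iigp1 went from 7.52 to 28.9, so that Gbp5 ranked last in 3 libraries and Iigp1 in CD4-depleted LC. All 10 together summed to 688 TPM in isotype IPF-LC, 542 in CD4-depleted IPF-LC, 784 in isotype LC and 532 in CD4-depleted LC.

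**Figure D1:**
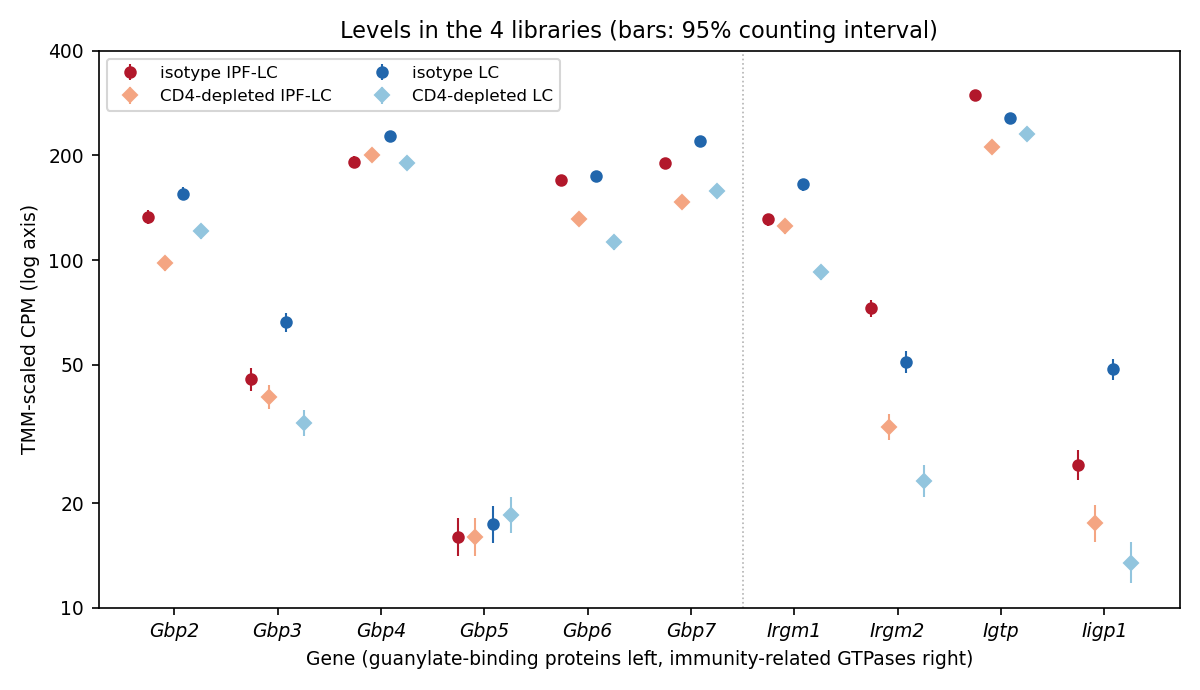
TMM-scaled CPM (log axis) of the 10 genes in the 4 libraries, with 95% counting intervals; circles are isotype and diamonds CD4-depleted libraries, red shades IPF-LC and blue shades LC. For 8 of the 10 genes both diamonds lie below both circles, while the Gbp4 and Gbp5 points overlap.

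Most of the 10 genes were lower in the CD4-depleted libraries of both models. For 8 of them (Gbp2, Gbp3, Gbp6, Gbp7, Irgm1, Irgm2, Igtp and Iigp1) both isotype libraries lay above both CD4-depleted libraries, an order found in 20.3% of the 8433 genes whose mean reached 10 CPM. The reverse order, found in 24.7% of them, held for 0 of the 10. In Gbp4 and Gbp5 the isotype and CD4-depleted libraries overlapped. When libraries were scaled to the summed CD8 T cell markers instead of TMM, 6 of the 10 had both isotype libraries above both CD4-depleted libraries. The share of all genes with that order under this scaling was not computed, so this count only describes the 10. The highest level was in isotype LC for 7 genes, in isotype IPF-LC for Irgm2 and Igtp, and in CD4-depleted LC for Gbp5. The lowest was in CD4-depleted LC for 6 genes and in CD4-depleted IPF-LC for 4. The shares of all genes by highest and lowest library were not computed, so these counts only describe the 10.

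The first question was how these genes differed after CD4 depletion in IPF-LC mice. There 9 of the 10 had a ratio below 0, Gbp5 by less than 0.01, where 49.9% of the 8433 genes did, and for 7 the whole interval lay under 0, against 38.3% of all genes. It lay over 0 for 0 of the 10 and for 39% of all genes. Only Irgm2 was at least 2-fold lower (1 of 10, against 6.02% of all genes, or 0 of 10 against 3.85% with the whole interval beyond 2-fold), and 0 were at least 2-fold higher (4.09% of all genes). The median log2 ratio of the 10 was -0.38, with -0.27 for the GBPs and -0.53 for the IRGs, beside 0.00 over all genes. Scaling to the CD8 T cell markers moves the median of all genes in this comparison to 0.27 and that of the 10 genes to -0.11. The sort held less CD8 marker RNA after depletion in this model, at 4884 against 5884 CPM.

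In LC mice, asked the same question, the depleted library was lower by more. Of the 10 genes 9 had a ratio below 0, each with its whole interval there (44% and 30.7% of all genes), and 0 had it over 0 (41.1%). Irgm2 and Iigp1 were at least 2-fold lower (2 of 10, against 5.85% of all genes), Iigp1 alone with its whole interval beyond 2-fold (4.83% of all genes), and 0 were at least 2-fold higher (2.59%). The median log2 ratio was -0.55, with -0.42 for the GBPs and -0.99 for the IRGs, beside 0.06 over all genes. The 4 IRG genes thus had lower medians than the 6 GBP genes in both models, a difference that was not tested. The 2 depletion comparisons share no library, and 234 genes, 2.77% of those tested, were at least 2-fold lower in both; Irgm2 was the member among them.

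**Figure D2:**
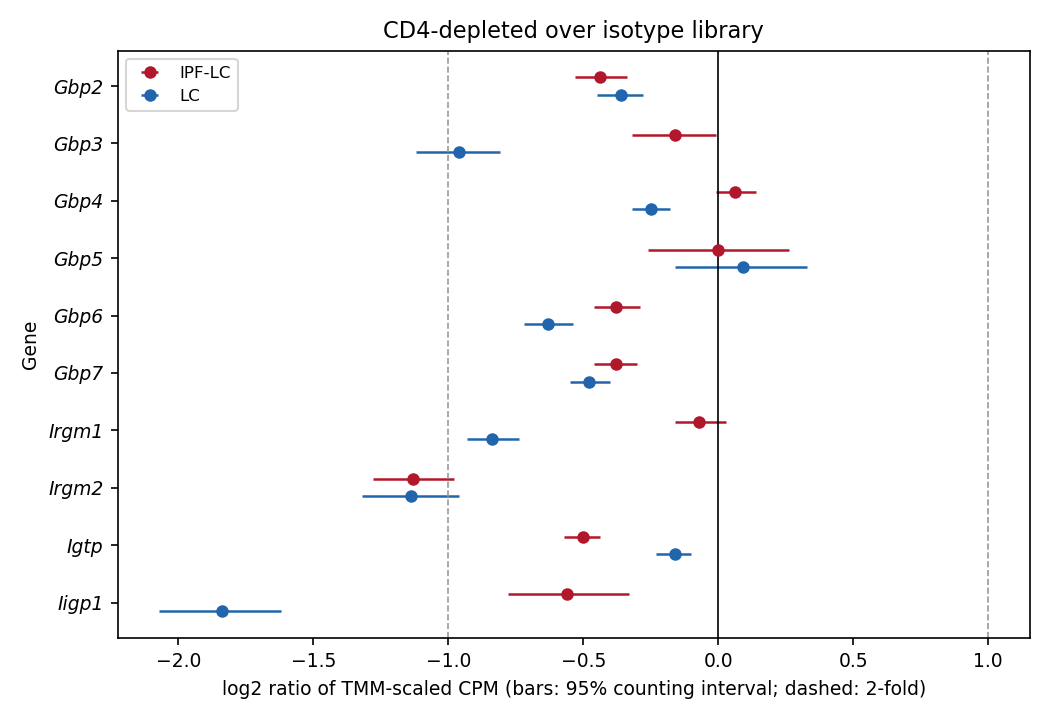
Log2 ratio of the CD4-depleted over the isotype library for each gene in IPF-LC (red) and LC (blue), with 95% counting intervals; dashed lines mark 2-fold. With this TMM scaling Irgm2 lies beyond the lower 2-fold line in both models (not in IPF-LC when scaled to the CD8 T cell markers) and Iigp1 in LC, and Gbp5 spans 0 in both.

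Among the IRG regulators, Irgm2, which guards the Golgi and other host membranes, was lower in the depleted libraries of both models. Its level was 72.6 CPM in isotype IPF-LC, 33.2 in CD4-depleted IPF-LC, 51 in isotype LC and 23.2 in CD4-depleted LC. Both depleted libraries were below both isotype libraries. The depletion log2 ratio was -1.13 (-1.28 to -0.98) in IPF-LC and -1.14 (-1.32 to -0.96) in LC, a level 2.19-fold and 2.2-fold lower. Scaled to the CD8 T cell markers the ratios were -0.86 and -1.30, so that Irgm2 was no longer 2-fold lower in IPF-LC and the models were less alike.

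Igtp, whose promoter stretch is almost that of Irgm2, was lower in both depleted libraries by less than Irgm2. It was measured at 298 CPM in isotype IPF-LC, 211 in CD4-depleted IPF-LC, 257 in isotype LC and 230 in CD4-depleted LC. The depletion log2 ratio was -0.50 (-0.57 to -0.44) in IPF-LC and -0.16 (-0.23 to -0.10) in LC. Scaled to the CD8 T cell markers they were -0.23 and -0.32, so which model had the larger difference depended on the scaling. Of the 50-base words in the GENCODE transcripts of Igtp, 11.8% also occur in those of Irgm2, and the expected counts of both were whole in each library.

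Irgm1, the IRG regulator tied to lysosomes and mitochondria, whose loss in infected mice leads to a shortage of lymphocytes, differed mainly in LC. It stood at 131 CPM in isotype IPF-LC, 125 in CD4-depleted IPF-LC, 165 in isotype LC and 92.2 in CD4-depleted LC. The depletion log2 ratio was -0.84 (-0.93 to -0.74) in LC. In IPF-LC it was -0.07 (-0.16 to 0.03), a difference not detectable at this depth, and 0.20 when scaled to the CD8 T cell markers.

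Iigp1, the effector GTPase that docks on parasite vacuoles, had the widest spread of the 10, at 3.59-fold between its highest and lowest library. It was at 25.8 CPM in isotype IPF-LC, 17.5 in CD4-depleted IPF-LC, 48.5 in isotype LC and 13.5 in CD4-depleted LC. The isotype LC library stood well above the rest. The depletion log2 ratio was -0.56 (-0.78 to -0.33) in IPF-LC and -1.84 (-2.07 to -1.62) in LC, where the level was 3.58-fold lower. The order of the libraries is that of the summed macrophage markers, as it is for Gbp3, Gbp6 and Irgm1 and for 5.56% of all genes. Summed NK cell, dendritic cell, neutrophil, endothelial, fibroblast and lung epithelial markers have this order too, and the part of such cells in these ratios was not tested.

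Of the GBP genes that neighbour each other on chromosome 3, Gbp2 and Gbp7 were lower after depletion in both models. Gbp2, a prenylated GBP that coats parasite and bacterial vacuoles, was at 133 CPM in isotype IPF-LC, 98 in CD4-depleted IPF-LC, 155 in isotype LC and 121 in CD4-depleted LC. Its depletion log2 ratios were -0.44 (-0.53 to -0.34) in IPF-LC and -0.36 (-0.45 to -0.28) in LC. Gbp7, linked to the assembly of the phagocyte oxidase and to autophagy, stood at 190, 147, 220 and 158 CPM in the same order, with ratios of -0.38 (-0.46 to -0.30) and -0.48 (-0.55 to -0.40). Both genes had their lowest level in CD4-depleted IPF-LC. With the CD8 T cell marker scaling the models were further apart, at -0.17 and -0.52 for Gbp2 and -0.11 and -0.64 for Gbp7.

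Gbp3, from the same cluster, was lower mainly in LC. It was at 45.4 CPM in isotype IPF-LC, 40.5 in CD4-depleted IPF-LC, 66.2 in isotype LC and 34 in CD4-depleted LC. The depletion log2 ratio was -0.96 (-1.12 to -0.81) in LC, just short of 2-fold. It passed 2-fold there with CD8 T cell marker scaling (-1.12) and with deposited TPM (-1.04), which made 3 of the 10 genes 2-fold lower in LC. In IPF-LC the ratio of Gbp3 was -0.16 (-0.32 to -0.01) and turned to 0.10 when scaled to the CD8 T cell markers.

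Gbp5, a prenylated GBP known for promoting the NLRP3 inflammasome, was alone in showing no difference detectable at this depth in either model with TMM scaling. It was at 16 CPM in both IPF-LC libraries, 17.4 in isotype LC and 18.5 in CD4-depleted LC, from 249 to 290 counts. The depletion log2 ratio was 0.00 (-0.26 to 0.26) in IPF-LC and 0.09 (-0.16 to 0.33) in LC, and scaled to the CD8 T cell markers these became 0.27 and -0.07. With TMM scaling, counting error alone left room for a ratio of 0.33 at most in either direction. That limit does not cover the choice of scaling, since 0.27 lies outside the TMM interval in IPF-LC, nor the spread between animals.

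Gbp4 and Gbp6 belong to a second cluster. Gbp4 was at 192 CPM in isotype IPF-LC, 201 in CD4-depleted IPF-LC, 227 in isotype LC and 190 in CD4-depleted LC. Its depletion log2 ratio was 0.06 (-0.01 to 0.14) in IPF-LC and -0.25 (-0.32 to -0.18) in LC. Scaled to the CD8 T cell markers these were 0.33 and -0.41. Gbp6 was at 170, 131, 174 and 113 CPM in the same order, with ratios of -0.38 (-0.46 to -0.29) and -0.63 (-0.72 to -0.54). Gbp6 is hard to count alone: 70.7% of the 50-base words in its GENCODE transcripts occur in transcripts of other genes, foremost the neighbour Gbp10 and the overlapping gene model Gm43302, and its expected counts were fractional in each library. With the 3 genes summed the ratios were -0.32 in IPF-LC and -0.67 in LC.

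A model of all 4 libraries with model and antibody as additive terms was the only test across libraries, with 1 residual degree of freedom. By edgeR's quasi-likelihood test with Benjamini-Hochberg adjustment over 13045 genes, 0 of the 10 passed an adjusted p of 0.05 for depletion (0% of all genes in either direction). At an unadjusted p under 0.05, 4 of the 10 were lower (Irgm2, Gbp6, Iigp1 and Gbp7), as were 6.85% of all genes, and 0 were higher, against 3.11%. The depletion term of Irgm2 was -1.16 on the log2 scale (SE 0.25; adjusted p = 0.303 by edgeR), with the gene lower in 2 of 2 models. That of Iigp1 was -1.22 (SE 0.44; adjusted p = 0.468 by edgeR), also lower in both. DESeq2 called 0.767% of genes higher and 2.91% lower, and none of the 10, with the smallest adjusted p of the 10 at 0.0907, again for Irgm2. Over the alternatives run, the adjusted p of Irgm2 lay between 0.0851 and 0.466.

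The second question was how IPF-LC and LC differed. These comparisons use the same 4 libraries as the depletion comparisons. With isotype antibody, 8 of the 10 genes were lower in IPF-LC (47.5% of all genes), 6 of them with their whole interval under 0 (33.1% of all genes), and Irgm2 and Igtp were higher, both with the whole interval over 0 (38.1%). None was 2-fold apart, where 4.11% of all genes were lower by that much and 1.91% higher. Iigp1 came nearest, at -0.91 (-1.09 to -0.74), followed by Gbp3 at -0.55 (-0.69 to -0.41). Iigp1 was more than 2-fold lower with CD8 T cell marker scaling (-1.19) and with deposited TPM (-1.07). Irgm2 had a ratio of 0.51 (0.38 to 0.64) and Igtp one of 0.22 (0.15 to 0.28), which turned to -0.06 when scaled to the CD8 T cell markers. The median of the 10 was -0.22 beside 0.02 over all genes; the macrophage and monocyte markers, at 3437 against 5065 CPM, were lower in IPF-LC too, and their part was not tested.

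After CD4 depletion, 6 of the 10 genes were higher in IPF-LC, each with the whole interval over 0 (36.8% of all genes), and 3 of the 4 lower ones had it under 0 (35.2%). None was 2-fold apart, against 3.3% of all genes higher and 2.57% lower by that much. Irgm2 had a ratio of 0.52 (0.32 to 0.72), beside 0.51 with isotype antibody, and scaled to the CD8 T cell markers these were 0.67 and 0.24. Irgm1 stood at 0.44 (0.34 to 0.54), Iigp1 at 0.37 (0.11 to 0.64) and Gbp3 at 0.25 (0.08 to 0.42), opposite in sign to their ratios with isotype antibody. With Gbp4, Gbp6 and Igtp, 6 genes in all had opposite signs under the 2 antibodies. The interval of Gbp6 with isotype antibody spanned 0 (-0.11 to 0.04). The share of all genes with opposite signs was not computed, so this count says nothing particular about the 10. Gbp2 was lower in IPF-LC with either antibody, at -0.23 and -0.30. Gbp7 (-0.11) and Igtp (-0.12) were lower under TMM scaling but at 0.05 and 0.03 when scaled to the CD8 T cell markers. The median of the 10 was 0.15 beside 0.00 over all genes. By edgeR's quasi-likelihood test the additive model term gave 0 of the 10 an adjusted p under 1 or an unadjusted p under 0.05, which 0.69% of all genes had as higher and 1.33% as lower. DESeq2 called 0 of the 10 and 0.0383% of all genes as lower.

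**Figure D3:**
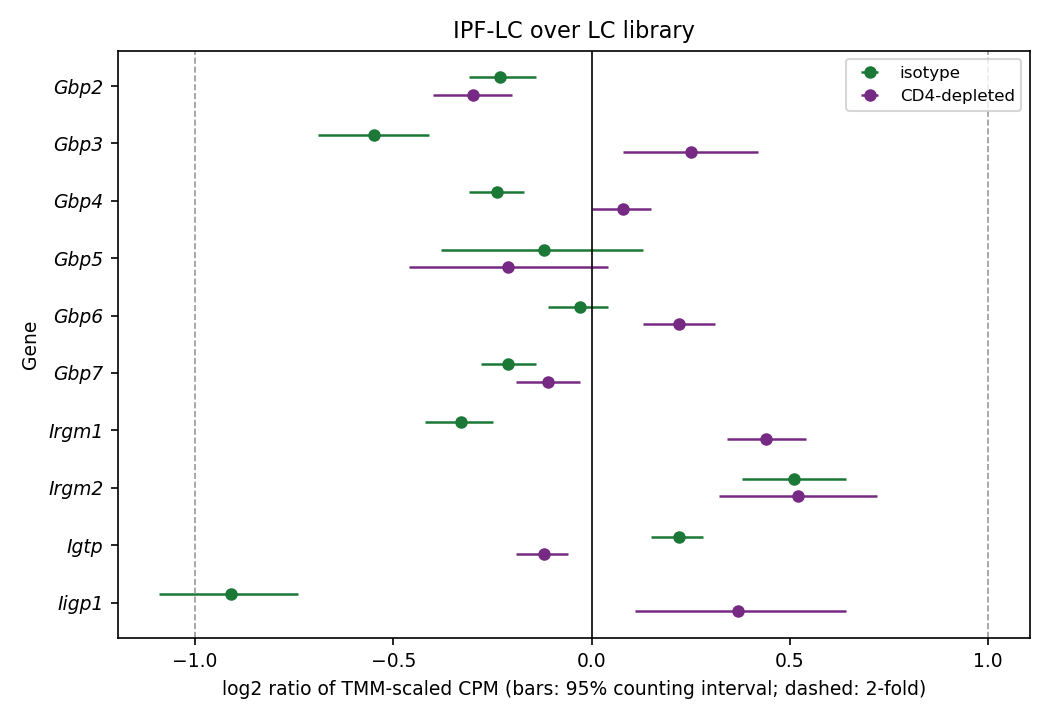
Log2 ratio of the IPF-LC over the LC library for each gene with isotype antibody (green) and after CD4 depletion (purple), with 95% counting intervals; dashed lines mark 2-fold. Irgm2 lies at 0.51 and 0.52, Gbp2 is below 0 with either antibody, and Gbp3, Irgm1 and Iigp1 switch sides.

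Further genes of the families were read from a list of 28 symbols, of which 18 are in the tables and 9 reach a mean of 10 CPM. In IPF-LC 2 of the 9 were at least 2-fold lower after depletion (6.02% of all genes) and in LC 1 was (5.85%). They were Gbp8 and 9930111J21Rik1 in IPF-LC and Gbp10 in LC. As 82.9% of the words of 9930111J21Rik1 and 84.1% of those of Gbp10 occur in other genes, these 2 calls rest on counts split between copies. In either model 0 of the 9 were at least 2-fold higher (4.09% and 2.59% of all genes), and the medians, with each gene taken alone, were -0.45 and -0.49. Gbp8 was at 90.5 CPM in isotype IPF-LC, 36.1 in CD4-depleted IPF-LC, 55.1 in isotype LC and 48.3 in CD4-depleted LC, so that its ratio was -1.33 in IPF-LC and -0.19 in LC. Gbp9 had ratios of -0.45 and 0.04, and Gbp10, entangled with Gbp6, of 0.37 and -1.04. Irgq, a distant relative, went the other way in IPF-LC, at 0.89, and stood at -0.49 in LC. Below the minimum, Gm12185 was lower in both, at -1.49 and -1.38, and Gbp11 higher in both, at 0.47 and 0.46.

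Near-identical copies can only be read together. Tgtp1 and Tgtp2, effector IRGs that share 79.4% of the words of Tgtp1, summed to 565 CPM in isotype IPF-LC, 464 in CD4-depleted IPF-LC, 595 in isotype LC and 382 in CD4-depleted LC, with depletion log2 ratios of -0.28 and -0.64. These lie close to those of Gbp6. The pair 9930111J21Rik1 and 9930111J21Rik2 summed to 167, 70.2, 114 and 89.9 CPM, with ratios of -1.25 and -0.35; taken alone, 9930111J21Rik1 had ratios of -2.07 and 0.19. Gvin1, of the very large inducible GTPases, had ratios of -0.84 and -0.49, but 99.2% of its words occur in other gene models. Gbp2b, the GBP also known as Gbp1, was at 0 counts in each library.

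The pathway upstream was read from a list of 11 genes of interferon gamma signalling. In IPF-LC 1 was at least 2-fold higher after depletion and 1 lower (median 0.38), and in LC 0 were higher and 2 lower (median 0.06). Of all genes 4.09% were higher and 6.02% lower by that much in IPF-LC, and 2.59% and 5.85% in LC. Ifng itself was at 27.6 CPM in isotype IPF-LC, 25.9 in CD4-depleted IPF-LC, 34.5 in isotype LC and 14.1 in CD4-depleted LC. It was thus lower in the depleted LC library (-1.29, -1.52 to -1.06), with no difference detectable in IPF-LC (-0.09, -0.29 to 0.11). Of the receptor chain genes, Ifngr1 had ratios of 0.38 (IPF-LC) and 0.10 (LC) and Ifngr2 of -0.17 and -0.26. The kinase gene Jak1 had ratios of 0.19 and 0.08, and Jak2 was higher in both models, at 1.67 and 0.79.

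Irf1, the factor that binds the ISRE of GBP genes, stood at 0.51 in IPF-LC and -0.10 in LC. The feedback inhibitor gene Socs1 had ratios of 0.84 and 0.52. Irf8, made by myeloid and B cells as well as by T cells, was at 40.9, 18.6, 146 and 12.2 CPM in the order of libraries above, the order of the macrophage markers.

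A list of other targets of interferon gamma had medians near those of all genes. Of the 19 whose mean reached 10 CPM, 1 was at least 2-fold higher and 0 lower after depletion in IPF-LC, and 0 were higher and 1 lower in LC, with medians of -0.11 and -0.07. The shares of all genes were 4.09% higher and 6.02% lower in IPF-LC, and 2.59% and 5.85% in LC. Psmb10, an immunoproteasome subunit, had ratios of -0.80 and -0.23. Ly6a, a surface protein of activated T cells, had ratios of -0.82 and -1.37, and the serpin gene Serpina3g of 1.49 and -0.75. The chemokine gene Cxcl10 was at -0.12 and -0.74.

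A list of type I interferon targets had lower medians. Of the 26 whose mean reached 10 CPM, 4 were at least 2-fold lower and 0 higher after depletion in IPF-LC, and 13 were lower and 1 higher in LC, with medians of -0.61 and -0.97. Of all genes 6.02% were lower and 4.09% higher by that much in IPF-LC, and 5.85% and 2.59% in LC. Slfn5 (-2.32 and -1.65), Cmpk2 (-1.75 and -1.72), Oasl2 (-1.12 and -2.06) and Rsad2 (-0.44 and -2.28), interferon-induced genes with antiviral roles, were among those lower in both models. Of 7 genes of type I interferon signalling, 1 was at least 2-fold lower and 0 higher in each model, with medians of -0.06 and -0.25. That gene, Usp18, which damps the signal, had ratios of -1.37 and -1.65, while of the transcription factor genes of that pathway Stat2 was at 0.48 (IPF-LC) and -0.50 (LC) and Irf9 at -0.06 and -0.10. No test compared the lists.

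Genes that work beside the GTPases were also read. None of the 11 autophagy conjugation genes, whose products direct GBPs and IRGs to vacuoles, was 2-fold apart after depletion in either model, with medians of 0.34 and 0.13. The shares of all genes were 4.09% higher and 6.02% lower in IPF-LC, and 2.59% and 5.85% in LC. Atg16l1 had ratios of 0.94 and 0.24. Of the 6 measured inflammasome genes, Casp4, the sensor of bacterial lipopolysaccharide that GBPs help to engage, was higher in IPF-LC at 1.98 (1.64 to 2.36) and at 0.27 in LC, while Il1b, a product of myeloid cells, was at -2.23 and -4.54. Of the 5 prenylation genes, whose enzymes attach the lipid anchors of GBPs, none was 2-fold apart, and the medians were -0.30 and 0.18.

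**Figure D4:**
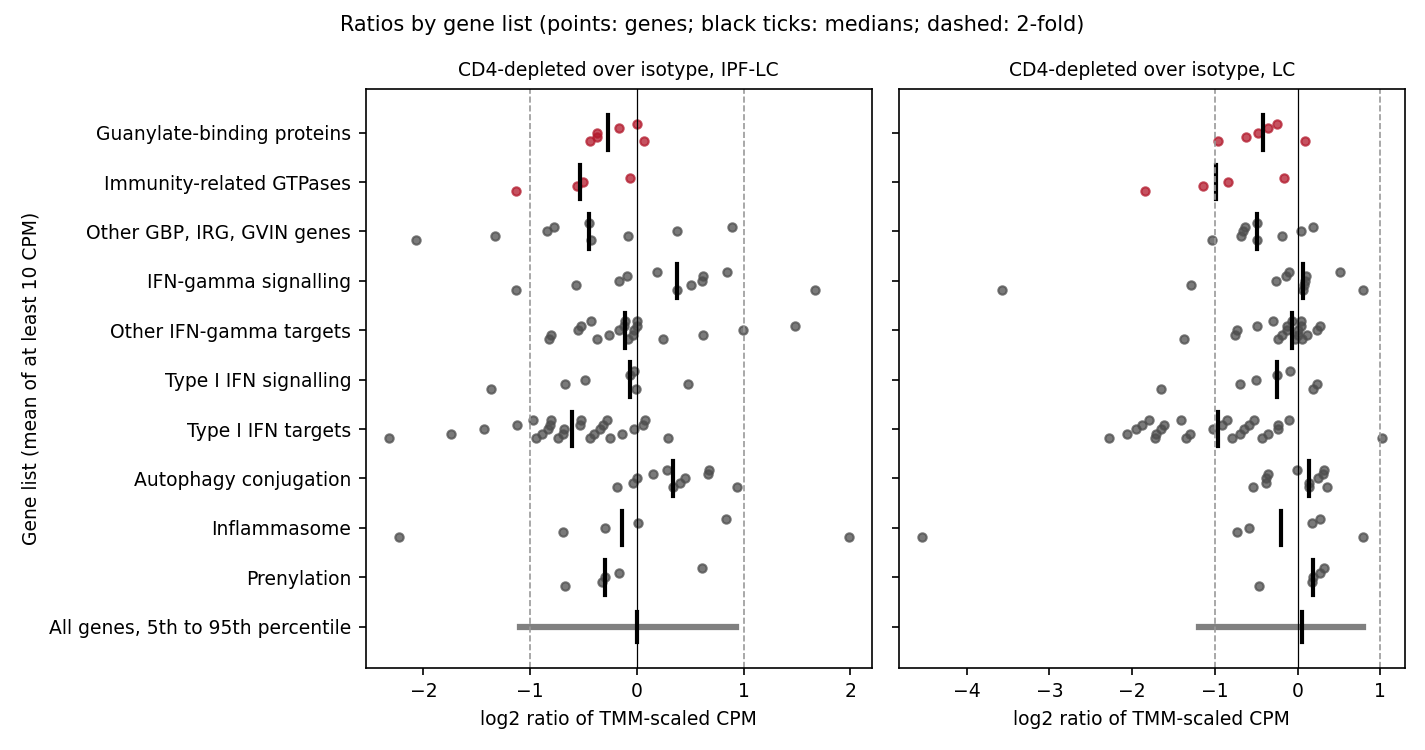
Log2 ratios of the CD4-depleted over the isotype library in IPF-LC (left) and LC (right) by gene list; points are genes whose mean reached 10 CPM, black ticks the list medians, and the grey bar the 5th to 95th percentile of all genes. The IRG medians lie at -0.53 and -0.99 and those of type I interferon targets at -0.61 and -0.97.

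The genes nearest in pattern to the 10 were sought by the Euclidean distance between centred log2 CPM over the 4 libraries, taking the mean profile of the 10 as the reference. The 5 nearest were Gemin2 (0.03), Dhrs3 (0.06), AW112010 (0.07), Sephs2 (0.08) and Naa38 (0.08). AW112010 was at 259 CPM in isotype IPF-LC, 198 in CD4-depleted IPF-LC, 279 in isotype LC and 176 in CD4-depleted LC. Among the 10 themselves Gbp6 was nearest their mean at 0.13, and Iigp1 (0.88), Irgm2 (0.85) and Gbp5 (0.60) were farthest. The distance over 4 libraries is a description only.

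**Figure D5:**
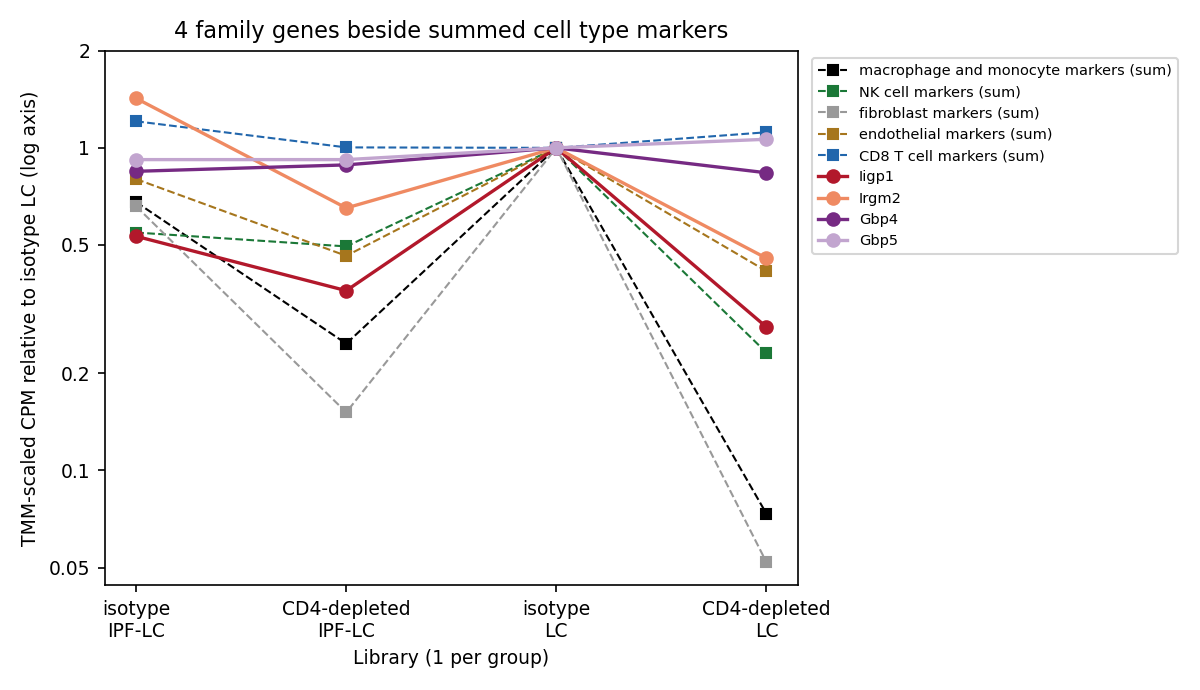
TMM-scaled CPM relative to isotype LC (log axis) in the 4 libraries for 4 of the GTPase genes (circles, solid) and the summed markers of 5 cell types (squares, dashed); lines only join the points of 1 gene or list. Macrophage and fibroblast sums are lowest in CD4-depleted LC, where Iigp1, Irgm2 and Gbp4 are lowest as well. Gbp4 and Gbp5 stay near 1 throughout.

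Iigp1 and the macrophage sum both had their highest level in isotype LC and their lowest in CD4-depleted LC. The macrophage sum differed 13.6-fold between these libraries and Iigp1 3.58-fold. In CD4-depleted LC 7 of the 20 macrophage markers, among them Adgre1 and Clec7a, were at 0, while each of the 10 GTPase genes still had between 212 and 3598 counts. Irgm2 and Igtp were highest in isotype IPF-LC. None of the 10 genes had the order of libraries of the summed CD8 T cell markers, which only 4.51% of all genes had. Igtp had that of the B cell and plasma cell markers, as did 6.1% of all genes. The part of any of these cell types in these differences was not tested.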

How the data were processed

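RNA-seq of 4 libraries, 1 per group, was read from gene tables holding expected counts, TPM and FPKM as deposited by the authors; the FPKM values were not used. The deposited expected counts (RSEM's estimated counts, which share a read between genes it fits) are not all whole, with 5.49 to 5.89% fractional values per library, and were rounded. Per the submitters' processing notes the tools were STAR 2.7.11a and RSEM 1.3.3, besides fastp 0.23.4 and MultiQC 1.25.2, and the build was GRCm39. The annotation release and strand setting are not given in the sources used here, so overlapping and antisense genes cannot be told apart.

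Counts were scaled by TMM (edgeR 4.0.16, R 4.3.3) to CPM. Ratios used a prior count of 0.5 and exact conditional binomial 95% intervals. Counts and medians cover genes whose mean reached 10 CPM. The additive model used edgeR's quasi-likelihood test over the genes its filter kept, with DESeq2 1.42.0 as an alternative. It was run on simulated data too, but with less spread between libraries than the common dispersion of 0.229 estimated here. The simulation also held no difference between the models. It therefore does not show how the test performs on these data. Groups came from the labels, which do not tell whether a library is 1 mouse or a pool. Promoters were searched by exact letters. Shared words were counted in GENCODE M21 transcripts, an earlier annotation than the build of the counts.

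The members, gene lists and markers were chosen with earlier results of these data known. All 10 members are named. Of each other list, up to 4 genes with the largest mean depletion ratio and a fixed set of upstream genes could be named, and every further family gene with a mean of at least 1 CPM. Other scalings, minimums, priors and call rules were tried. Values of some listed genes are not reported here.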

Additional observations from a re-analysis of the deposited data

Results flagged for a closer look

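Gbp4 and Gbp5 had depletion ratios whose point values were of opposite sign in the 2 models. In IPF-LC the TMM interval of each gene spanned 0, so neither has a settled sign there with that scaling. For Gbp4 the log2 ratio of CD4-depleted over isotype was 0.06 in IPF-LC and -0.25 in LC, a difference of 0.32 from unrounded values. Scaled to the CD8 T cell markers these were 0.33 and -0.41, and with TPM 0.24 and -0.31. For Gbp5 the TMM ratio was just under 0 in IPF-LC and 0.09 in LC, a difference of -0.09, and both intervals span 0. Its signs were exchanged with CD8 T cell marker scaling, at 0.27 and -0.07. With 1 library per group neither difference was tested.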

How the results depend on the processing

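Each group has 1 library, so no analysis paired by replicate number was possible and no replicate could be left out; the additive model compares the antibodies within each model. Deposited TPM in place of TMM counts changed the sign of 0 of the 40 member ratios and scaling to the CD8 T cell markers that of 7; DESeq2 size factors and a prior count of 2 changed only that of Gbp5 in IPF-LC, at 0.00. Under CD8 T cell marker scaling the members' median became -0.11 for depletion in IPF-LC and -0.71 for depletion in LC. It became -0.49 for model with isotype antibody and 0.30 for model after depletion. The median over all genes moved too, to 0.27, -0.10, -0.25 and 0.16 in that order. With this scaling 0 members were 2-fold lower in the first comparison, 3 in the second (adding Gbp3) and 1, Iigp1, in the third. Of the 8433 genes 320, 607 and 594 were, against 508, 493 and 347 with TMM. With TPM the medians were -0.73 for depletion in LC and -0.32 for model with isotype antibody, beside -0.02 and -0.06 over all genes. In the latter comparison Iigp1 was the 1 member 2-fold lower, as were 446 of the 8433 genes. A minimum of 50 CPM, which drops Irgm2 and Iigp1 among others, left 0 members 2-fold lower in either depletion comparison. Among all genes with that mean, 66 were 2-fold lower in IPF-LC and 70 in LC, and their share was not computed. The members' medians were then -0.42 for depletion in LC and -0.02 for model after depletion. Where the whole interval had to lie beyond 2-fold, 0 members were lower in IPF-LC (3.85% of all genes) and 1 in LC, Iigp1 (4.83%). For depletion the additive model called 0 genes higher and 0 lower by edgeR (406 and 894 at an unadjusted p under 0.05), 37 and 92 among genes whose mean reached 10 CPM, and 100 and 380 by DESeq2. For model it called 0 lower by edgeR (174 at an unadjusted p under 0.05) and 5 by DESeq2. None of these calls was a member; the causes were not tested. With Gbp6, Gbp10 and Gm43302 summed, an alternative chosen after seeing the data, the depletion ratios of Gbp6 kept their sign. Without replicates the depth limits only counting error, and the spread between animals is unknown.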
